A study of Macaca mulatta with 24 samples.

Results

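DNA methylation was compared between omental fat of macaques given testosterone alone and macaques fed a western-style diet alone, 2 single exposures whose combination is the other arm of the same study. The *T* animals (numbers 13 to 18) carried testosterone implants and ate monkey chow. The *WSD* animals (numbers 19 to 24) carried cholesterol implants, the control for the hormone implant, and ate a high-fat western-style diet. The comparison therefore takes 12 of the 24 animals, 6 in each group, and all 841143 CpGs of the table. The remaining animals were 6 controls (*C*, cholesterol implants and chow) and 6 *T* + *WSD* animals (testosterone implants and western-style diet). They enter here as an outside reference and in the statistical fit of all 4 groups, where they share in setting the spread. All were female rhesus macaques labelled as 4 years old, treated for 3 years, and each gave 1 biopsy of visceral (omental) white adipose tissue (WAT), so the 6 values of a group come from 6 animals. *T* and *WSD* differed in implant and in diet at once. A difference between them is therefore testosterone on chow against diet without testosterone, and the part of either factor cannot be told apart within it. A WAT biopsy holds adipocytes, blood vessels, leukocytes and, in the omentum, mesothelium, and different proportions of these cells cannot be told apart from different methylation within one of them. The labelled tissue was not checked against marker genes, since the positions were not tied to genes here.

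Methylation of cytosine in CpG dinucleotides is copied at cell division and differs mainly by genomic context. CpG-dense islands at gene starts are as a rule unmethylated, most of the CpG-sparse genome is highly methylated, and intermediate levels occur at enhancers, at imprinted loci and wherever cells of the tissue or alleles of the animal differ. Androgen and dietary fat both act on adipose tissue, androgen through a nuclear receptor that binds DNA and fat through lipid storage and its hormonal signals. In reduced-representation bisulfite sequencing (RRBS) the DNA is cut at CCGG sites, so that reads start at a CpG and CpG-rich DNA is favoured. Values are percent methylation, and differences are given as percentage points, *T* minus *WSD* unless said otherwise. CpGs were also averaged over windows of 1 kb, which hold more reads per value, and the windows were sorted by their level in the 12 *C* and *T* + *WSD* animals and by the number of measured CpGs, with 3 to 9 called CpG-sparse and 10 or more CpG-dense. The sorting by level did not use the values of the animals compared. For the class means, only CpGs with a value in all 12 *T* and *WSD* animals were counted, and for the windows tested by limma every measured CpG.

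In the files used here, the depth of the libraries could be read only from the share of CpGs that had a value. It was 94.2 ± 4.76% in *T* and 95.8 ± 1.20% in *WSD* (SD, n = 6 each; exact permutation test, two-sided, p = 0.552). Animal T 16 stood apart with 85.3%, against 92.8 to 97.6% in the other *T* animals and 94.1 to 97.0% in *WSD*. Without T 16 the difference of the shares turned from -1.63 to 0.138 percentage points (exact permutation p = 0.900).

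No single CpG and no single 1 kb window passed the test between *T* and *WSD* in the fit of all 4 groups. By limma across all 4 groups, with Benjamini-Hochberg adjustment, 0 of 841143 CpGs had an adjusted p under 0.05 and a difference over 10 points (0% called), and the smallest adjusted p was 0.121. At an unadjusted p under 0.05 there were 47932 CpGs (5.7%), 19560 of them higher in *T* and 28372 higher in *WSD*. Of 100864 windows, 0 were called (0%), with a smallest adjusted p of 0.434, and 6193 had an unadjusted p under 0.05 (6.14%). In the same fit the other pairs of groups gave between 46 and 58 called CpGs. *C* against *T* + *WSD*, the pair in which both factors were added, gave 208 called windows, and *C* against *T* and *C* against *WSD* gave 8 and 4. Those pairs were not tested against the pair described here. The count of called CpGs was 14 when only the *T* and *WSD* animals were fitted and 0 to 14 when 1 animal was left out.

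The size of difference that could have been missed depended on the level of the window. The 95% interval of a window's difference came from a limma fit to untransformed rates, not from the fit that gave the p-values above. It extended by a median of 1.46 points to each side in windows under 10% methylated, by 8.12 points at 10 to 40% and by 10.1 points at 40 to 70%. At 70 to 90% it extended by 6.90 points and at 90% and over by 3.75 points. In the class under 10%, 97.3% of windows had an interval that lay wholly within 10 points of zero, and in the class of 90% and over 90.3% did. At 40 to 70% 22.1% did, so for most windows of that level the interval left room for a difference of 10 points. On simulated data, 0% of the windows changed by 10 points were called, 47.5% of those changed by 20 points and 83% of those changed by 30. The simulation gave no separate rates for the level classes. Its rates therefore cannot be taken to hold at every level, such as under 10% or at 90% and over, where the intervals were narrower. Pairs of adjacent positions were taken here as both strands of 1 CpG, although the table gives no strand. The SD of a single position within an animal, estimated from the differences within 5061 such pairs, was 7.88 points.

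Averaged over the genome, methylation was nearly the same after testosterone and after the diet. The mean over 545143 CpGs of the autosomes and X with a value in all 12 animals was 45.6 ± 0.435% in *T* and 45.9 ± 0.667% in *WSD*. In *T* the animals lay at 45.9, 45.4, 45.7, 46.0, 45.5 and 44.8% (T 13 to T 18). In *WSD* they lay at 46.2, 46.5, 46.2, 44.7, 45.6 and 46.0% (WSD 19 to WSD 24). The lowest value of all 12 was that of WSD 22, and the groups overlapped. The difference was -0.29 points with an interval of -0.98 to 0.43 (two-sided exact permutation test, p = 0.392). Without WSD 22 it was -0.53 points (exact permutation p = 0.0519) and without T 18 it was -0.14 (exact permutation p = 0.695). Each of the 21 chromosomes had a lower mean in *T*, with differences from -0.17 points on chromosome 12 to -0.39 points on chromosome 19. The chromosomes share the same 12 animals and are not independent.

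All 10 region classes had a lower mean in *T* than in *WSD*, and in none did the difference pass the test adjusted over the classes. The nearest was the class of CpG-sparse windows under 10% methylated, in which *T* averaged 2.29 ± 0.165% and *WSD* 2.53 ± 0.198% over 9136 windows, a difference of -0.25 points (interval -0.50 to -0.01; exact permutation p = 0.0498, adjusted p = 0.498). The *T* animals of this class lay at 2.56, 2.16, 2.17, 2.39, 2.30 and 2.14%, and the *WSD* animals at 2.65, 2.71, 2.75, 2.29, 2.43 and 2.35%. Only 6 of the 36 pairs of a *T* and a *WSD* animal had *T* higher. Adjusted p in this class ranged from 0.130 to 0.909 over the omissions of 1 animal. In CpG-dense windows under 10%, which hold the unmethylated islands, the means were 1.80 ± 0.325% and 2.01 ± 0.337%. T 13 with 2.43% and WSD 20 with 2.65% each lay well above their group there, and the difference of -0.21 points had an adjusted p of 0.660. It was -0.33 points without T 13 (adjusted p = 0.152) and -0.08 points without WSD 20.

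The classes of intermediate level had the larger differences and the wider intervals. CpG-sparse windows at 10 to 40% averaged 23.8 ± 0.792% in *T* and 24.5 ± 1.38% in *WSD* (difference -0.70 points, interval -2.09 to 0.78). CpG-sparse windows at 40 to 70% averaged 56.9 ± 1.01% and 57.3 ± 1.61% (difference -0.47 points, interval -2.01 to 1.28). Leaving out 1 animal moved the first from -1.15 points (without WSD 22) to -0.31 (without WSD 21) and the second from -1.10 (without WSD 22) to -0.12 (without T 18). At the other end, CpG-sparse windows of 90% and over averaged 93.8 ± 0.187% and 93.9 ± 0.274%, with an interval of -0.42 to 0.18 points. A shift of a class mean by 1 point or more in either direction lay outside the interval in 4 of the classes, those under 10% and those of 90% and over. In the CpG-dense classes between 10 and 90%, the sign turned when single animals were left out, T 18 or WSD 20.

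**Figure D1:**
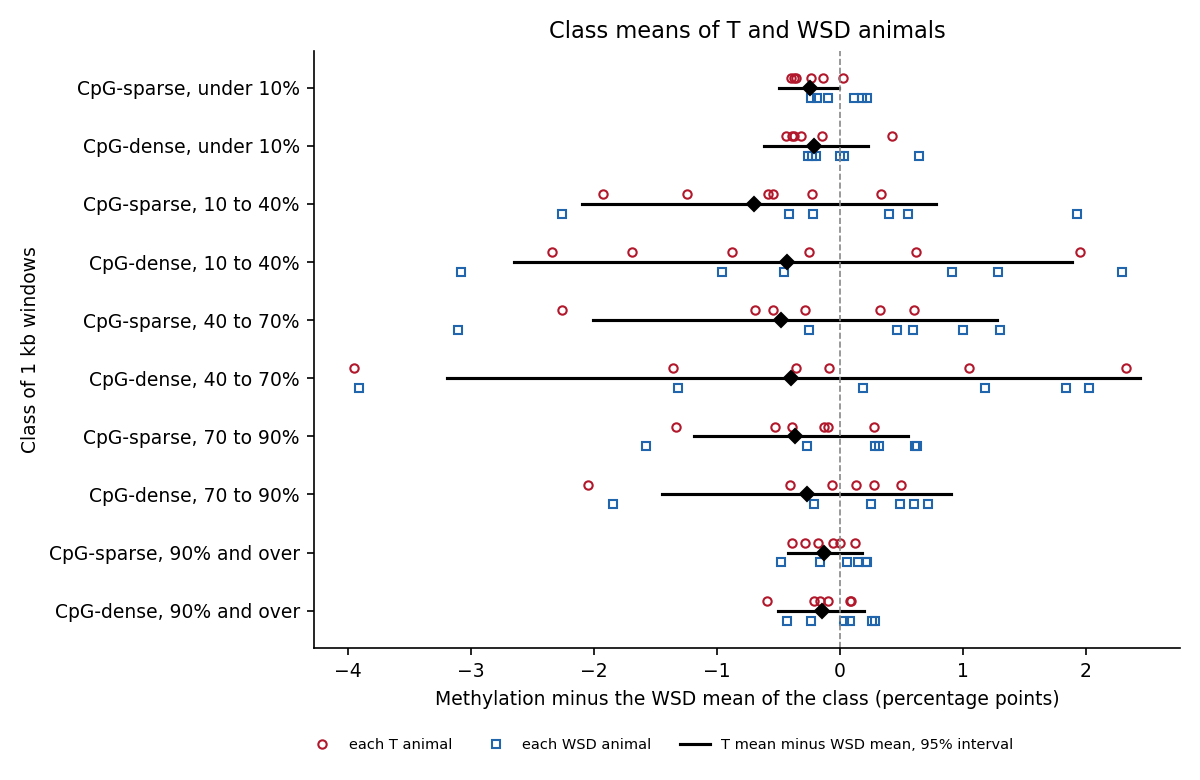
Mean methylation of each class of 1 kb windows in the 6 T (circles) and 6 WSD (squares) animals, drawn as percentage points above or below the WSD mean of the class, with the difference of group means (diamonds) and its 95% permutation interval (lines). All 10 diamonds lie left of zero, and the animals of the groups overlap in every class.

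More of the windows with small p were higher in *WSD* than in *T* in each level class, and the difference between the classes was not tested. Of the 6193 windows with an unadjusted p under 0.05, 62.8% were higher in *WSD*, and of the 66513 windows with values in all 12 animals, whatever their p, 56.1% were. In windows under 10% methylated the share was 77.8% (760 of 977), and in the CpG-dense ones among them 84.6% (369 of 436), against 61.1% and 63.4% of the windows of any p. It was 67.3% at 10 to 40%, 59.7% at 40 to 70%, 62.9% at 70 to 90% and 55.2% at 90% and over. In windows of any p it was 57.7, 54.6, 54.7 and 52.3% in these 4 classes. All shares at any p are over the 66513 windows, a different set from the 100864 windows that gave the p-values. CpG-dense also differs between the sets, since the first counts only CpGs with a value in all 12 animals and the second every measured CpG. The number of windows with small p was not raised in the low class, where it came to 4.80% against 6.14% over all windows. More windows were higher in *WSD* in each of the 12 omissions of 1 animal, the most even being 2730 higher in *T* and 3584 higher in *WSD* without T 18. The windows with small p under 10% differed by a median of only 2.18 points. These shares count windows that share animals, and they carry no test. Their direction is that of the lower class means of *T* described above, which average largely the same values, so it is no separate evidence.

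**Figure D2:**
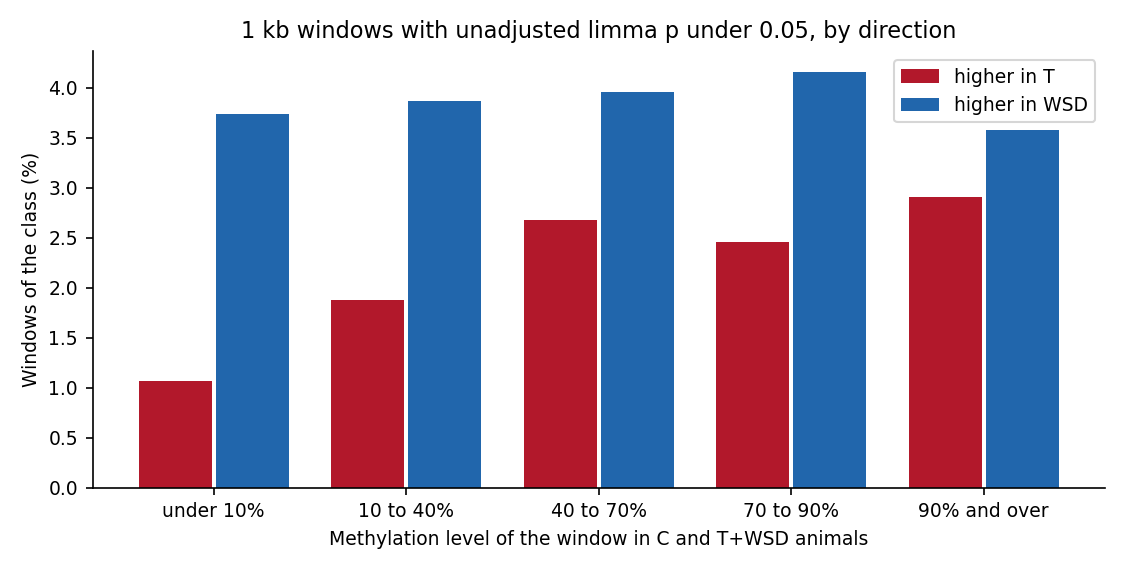
Percent of the windows of each level class with an unadjusted limma p under 0.05, split into those higher in T (left bars) and those higher in WSD (right bars). The right bar is taller in all 5 classes, and the bars are most unequal in windows under 10% methylated (217 windows higher in T and 760 higher in WSD).

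Among 66513 windows in which all 12 animals had values throughout, the groups did not overlap in 64 windows higher in *T* (0.0962%) and in 98 higher in *WSD* (0.147%). In 89.3% of the windows the group means differed by less than 5 points, in 1145 windows by 10 points or more, and in 43 by 20 points or more. The windows named next are those with the largest difference of group means among the ones without overlap, so that difference is a description and not a test. Coordinates are those of the rheMac8 build.

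The largest difference among those higher in *T* was in a CpG-dense window on chromosome 3, in which 21 CpGs spanned chr3:59907384-59907598. The *T* animals lay at 56.2, 65.4, 54.3, 61.2, 59.0 and 54.0%. The *WSD* animals lay at 50.1, 38.1, 19.4, 14.7, 34.6 and 41.4%. The *T* animals were close together and the *WSD* animals spread widely, so that the means were 58.3 ± 4.45% and 33.0 ± 13.5%. All 21 CpGs were higher in *T* (limma adjusted p = 0.728). Animals of *C* lay at 34.0 to 68.0% and those of *T* + *WSD* at 13.8 to 67.8%, each range reaching into both groups.

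A CpG-sparse window with 3 CpGs at chr4:40025180-40025208 followed. *T* animals lay at 81.6, 68.9, 81.3, 77.7, 82.5 and 81.6% and *WSD* animals at 60.9, 47.8, 65.1, 60.7, 65.6 and 67.0%. T 14 and WSD 20 were each the lowest of their group by some distance, and the gap between the groups was less than 2 points (means 78.9 ± 5.2% and 61.2 ± 7.05%, limma adjusted p = 0.657). The window with 4 CpGs at chr8:21801377-21801444 had *T* animals at 32.5, 35.8, 56.2, 36.6, 48.2 and 38.0% and *WSD* animals at 27.1, 26.9, 31.9, 27.2, 14.5 and 27.3%. Here 4 of the *WSD* animals lay within 1 point of each other and WSD 23 lay far below them (limma adjusted p = 0.744). The other 7 of the 10 windows of largest difference higher in *T* held 3 to 9 CpGs, were all CpG-sparse and had differences of 11.9 to 13.4 points. They lay at chr15:1895158-1895214, chr5:174423703-174423762, chr19:1074357-1074383, chr10:16085566-16085818, chr15:109573062-109573214, chr10:34787056-34787118 and chr3:23796263-23796330.

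The window of largest difference higher in *WSD* held 4 CpGs at chr12:95290021-95290082. *T* animals lay at 65.5, 70.2, 78.2, 79.7, 55.8 and 34.3% and *WSD* animals at 100, 83.4, 100, 92.1, 88.2 and 97.0%. The *WSD* animals were the nearer to full methylation and the *T* animals spread widely below. *C* ran from 70 to 99.6% and the 4 *T* + *WSD* animals with a value from 33.05 to 94.7%, each reaching into both groups. The means were 63.95 ± 16.96% in *T* and 93.4 ± 6.77% in *WSD* (limma adjusted p = 0.657).

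The second lay near an end of the X chromosome, with 5 CpGs at chrX:1237405-1237468. *T* animals lay at 36.3, 15.03, 16.8, 16.5, 9.41 and 27.8% and *WSD* animals at 37.5, 47.1, 47.8, 43.3, 40.5 and 61.5%. The highest *T* animal lay just below the lowest *WSD* animal, and the other 5 stood well apart (means 20.3 ± 9.84% and 46.3 ± 8.39%, limma adjusted p = 0.584). *C* averaged 61.4% and *T* + *WSD* 49.7% in it. The third held 8 CpGs at chr5:150429927-150429999, with *T* animals at 16.9, 18.1, 20.4, 9.38, 15.3 and 9.29% and *WSD* animals at 34.5, 52.7, 42.5, 32.5, 25.7 and 42.1%. All 8 CpGs were higher in *WSD*, and *C* (8.87 to 47.1%) reached into both groups (limma adjusted p = 0.682).

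The other 7 of the 10 higher in *WSD* were CpG-sparse, held 3 to 8 CpGs and differed by 12.96 to 19.4 points. They lay at chr13:1270017-1270352, chr15:4749468-4749493, chr13:43578811-43578842, chr2:200927043-200927072, chr10:92185101-92185139, chr12:89567826-89567877 and chr20:29175275-29175302. The window chr15:4749468-4749493 (44.1 ± 2.59% in *WSD* against 26.6 ± 8.09% in *T*) had, with the window chr10:16085566-16085818 higher in *T* (50.3 ± 3.08% against 38.1 ± 3.24%), the lowest adjusted p of the 20 named windows, 0.434. In chr13:43578811-43578842 the groups did not overlap and yet the unadjusted limma p was 0.207, with *C* animals at 27.5 to 68.5% and *T* + *WSD* animals at 26.6 to 71.2% in the same fit.

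**Figure D3:**
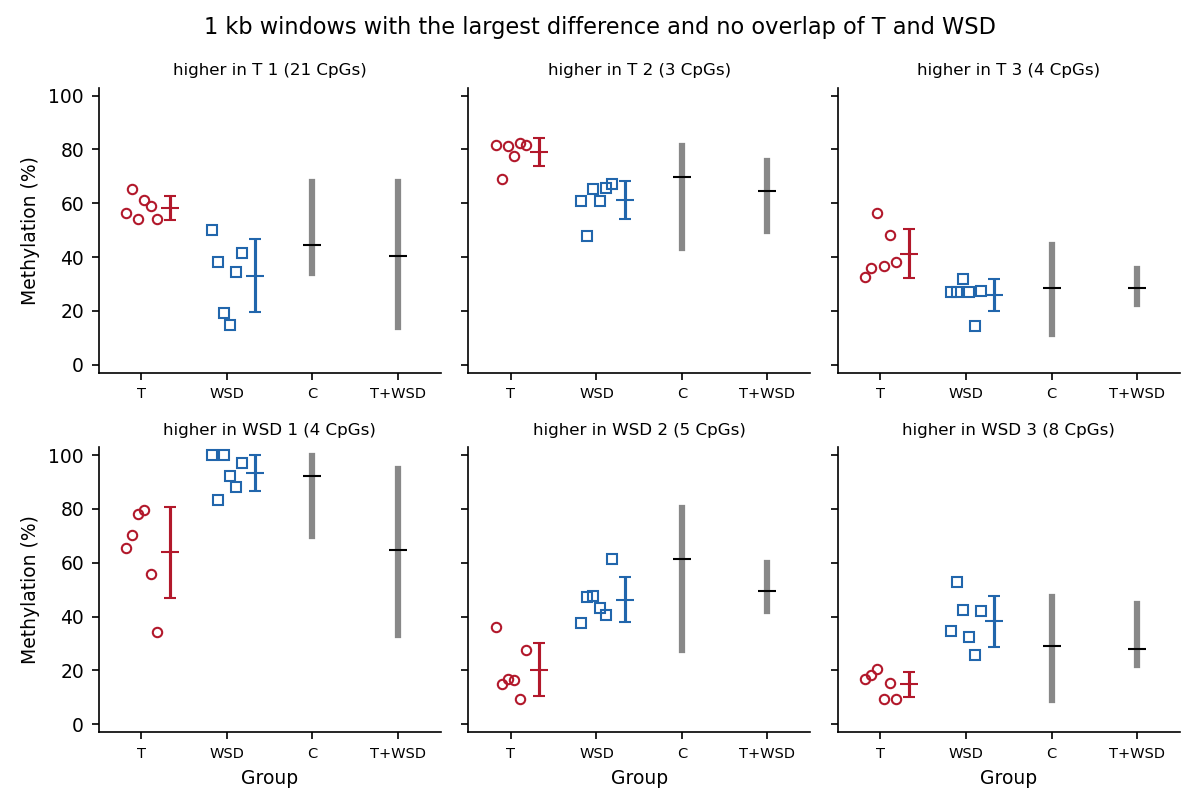
Methylation (%) of the 3 windows of largest difference higher in T and the 3 higher in WSD, in each T (circles) and WSD (squares) animal with the mean and SD beside them. Grey bars give the range and dashes the mean of the C and T+WSD animals with a value (6 of each, but 5 of each in the third window higher in T and 4 T+WSD animals in the first higher in WSD), which reach into the ranges of T or WSD in all 6 windows.

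Joining neighbouring CpGs by the comb-p procedure, which combines their p-values with allowance for their correlation, gave 33 differing regions (limma p-values combined, Sidak-adjusted p under 0.1, at least 2 CpGs, over 10 points), 27.3% of the 121 candidates joined. The cutoff was applied to the mean of the differences of single CpGs, whereas the levels given here are means per animal, over the CpGs with a value in all 12 animals where there were at least 2. By these, 1 region (chr9:64265553-64265620) differed by 8.42 points. Of the 33 regions, 9 were higher in *T* and 24 in *WSD*. The split was 8 against 10 with untransformed rates, 8 against 13 with a robust prior, and turned to 12 against 11 without T 14. They were short, with a median of 6 CpGs over 68 bp, and their group means differed by a median of 16.8 points. The groups did not overlap in 7 of the 27 regions in which all 12 animals had a value, which is no separate evidence since the regions were chosen by the same contrast. In 32 of the 33, all the CpGs averaged differed in the direction of the region. Only 4 of the 33 were found again in each of the 12 omissions of 1 animal, and 8 in each of 6 other fits. The allowance for correlation was the rank correlation of p-values by distance over all CpGs, 0.146 at 1 to 50 bp. The CpGs of a region come from the same animals, yet their number counts in the Sidak p, so it is no test of 1 value per animal. The 1 kb window at chr3:59907384-59907598 had an unadjusted limma p of 0.00624, and the region there a Sidak-adjusted p of 8.48e-06. At chr10:16085746-16085818 these were 3.22e-05 and 0.00163.

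The regions were sorted by their level in *C* and *T* + *WSD*, and whether the classes differed in direction was not tested. Under 10% there were 1 region higher in *T* and 10 higher in *WSD*, the 10 including the pair of mitochondrial CpGs described below. At 10 to 40% there were 2 and 8, at 40 to 70% 3 and 4, and at 70 to 90% 3 and 2. None had a level of 90% or over. Of the 10 regions under 10% that were higher in *WSD*, 2 were found again with untransformed rates and 1 with a robust prior, against 9 with log ratios. Of the 8 at 10 to 40% higher in *WSD*, 2 were found with untransformed rates and 3 with a robust prior, against 6 with log ratios. With only CpGs of a mean level of 5 to 95%, 7 of these 8 were found and 1 of the 2 higher in *T*. The 1 low region higher in *T* and both of those at 10 to 40% were found with untransformed rates and with a robust prior. In these 2 fits, 2 and 2 of the 3 regions at 40 to 70% higher in *T* were found, and 2 and 3 of the 4 higher in *WSD*. At 70 to 90% it was 3 and 3 of the 3 higher in *T*, and 1 and 2 of the 2 higher in *WSD*. These differences were not tested.

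The region of smallest Sidak p was one of the low class. It held 6 CpGs at chr16:18349926-18349997. The *T* animals lay at 0.417, 0.710, 0.575, 0, 0 and 0.758%. The *WSD* animals lay at 24.9, 25.7, 8.33, 1.11, 7.79 and 7.41%. No *T* animal reached 1%, and the *WSD* animals ran from just above that in WSD 22 up to WSD 19 and WSD 20 (Sidak-adjusted p = 6.11e-10). The *C* animals had at most 1.21% and the *T* + *WSD* animals at most 4.59%. It was found again in 10 of the 12 omissions and in 3 of the 6 other fits.

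In some other low regions fewer *WSD* animals stood above *T*. In chr6:132238593-132238663 (7 CpGs), 5 *T* animals had 0 to 5.95% and the 4 *WSD* animals with a value had 31.0, 39.3, 50 and 0% (Sidak-adjusted p = 5.31e-06). This region was found again in 7 of the 12 omissions and in 2 of the 6 other fits. In chr16:70379549-70379614 (8 CpGs, Sidak-adjusted p = 0.0563), chosen after its values were seen as an example, *WSD* animals had 30, 50, 0, 0, 0 and 19.5%, and no *T* animal of 5 passed 0.735%. That region was found again in 4 of the 12 omissions and in 1 of the 6 other fits. In 7 of the 10 low regions higher in *WSD*, at least 1 *WSD* animal lay within the range of the *T* animals.

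The spread within groups varied widely among regions of intermediate level, the SD of *WSD* running from 5.01 to 19.1 points among those of the 10 smallest Sidak p, the region at chr1:122827083-122827358 left out for its missing values. The region chr3:59907384-59907598 is the content of the chromosome 3 window described above (Sidak-adjusted p = 8.48e-06), and it was found in 11 of the 12 omissions and in all 6 other fits. The 5 CpGs of chr9:128608371-128608442 had 66.7, 67.6, 68.8, 93.9, 87.5 and 61.9% in *T* and 20.6, 47.5, 56.5, 30.1, 42.5 and 56.1% in *WSD*. The groups did not overlap (74.4 ± 13.01% against 42.2 ± 14.4%, Sidak-adjusted p = 1.75e-05), and *C* averaged 62.6% and *T* + *WSD* 48.2%. This region and the X-chromosome region at chrX:1237405-1237468 (Sidak-adjusted p = 0.000314) were the only 2 found in all 12 omissions and all 6 other fits.

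The remaining regions among the 10 of smallest Sidak p overlapped between the groups. At chr1:122827083-122827358 (14 CpGs) WSD 24 had 94.4% and T 16 29.4%, but with a value at only 3 and 2 of the CpGs. The other animals, with values at 12 to 14 of them, had 15.04 to 42.1% in *WSD* and 2.33 to 20.4% in *T* (Sidak-adjusted p = 0.000287). The difference of -27.3 points was -16.1 without WSD 24. This region was found again in 5 of the 12 omissions and in 4 of the 6 other fits. At chr7:21260000-21260197 (15 CpGs) *T* averaged 81.0 ± 10.5% and *WSD* 65.2 ± 10.1% (Sidak-adjusted p = 0.000351), and T 18 alone, with 60.7%, lay within the *WSD* range. At chr15:17519807-17519850 (6 CpGs) *WSD* averaged 52.9 ± 19.1% and *T* 17.9 ± 6.89% (Sidak-adjusted p = 0.00131), the widest difference of any region at 34.9 points, and WSD 24 with 18.3% lay among the *T* animals. At chr14:125843438-125843505 (11 CpGs), the only low region higher in *T*, *T* animals had 22.95, 1.07, 18.5, 37.3, 14.4 and 14% and 5 of the *WSD* animals 0.807 to 2.89% (Sidak-adjusted p = 0.00133), with WSD 19 at 14.7%. At chr5:120812725-120812781 (6 CpGs) the means were 30.8 ± 7.58% in *T* and 50.5 ± 5.01% in *WSD* (Sidak-adjusted p = 0.00151).

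One further region without overlap had narrow groups and is named after its values were seen. At chr10:16085746-16085818 (7 CpGs) *T* animals had 52.3, 44.2, 49.2, 52.1, 43.6 and 47.8% and *WSD* animals 33.0, 28.7, 39.1, 32.4, 34.9 and 28.1% (48.2 ± 3.75% against 32.7 ± 4.06%, Sidak-adjusted p = 0.00163). *C* averaged 39.5 ± 2.71% and *T* + *WSD* 39.0 ± 5.45%, between the 2 single exposures. It was found in all 12 omissions and in 5 of the 6 other fits. Over all regions, *C* lay between *T* and *WSD* in 29 of 33 and *T* + *WSD* in 27, a position that choosing regions by the distance of *T* from *WSD* favours.

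**Figure D4:**
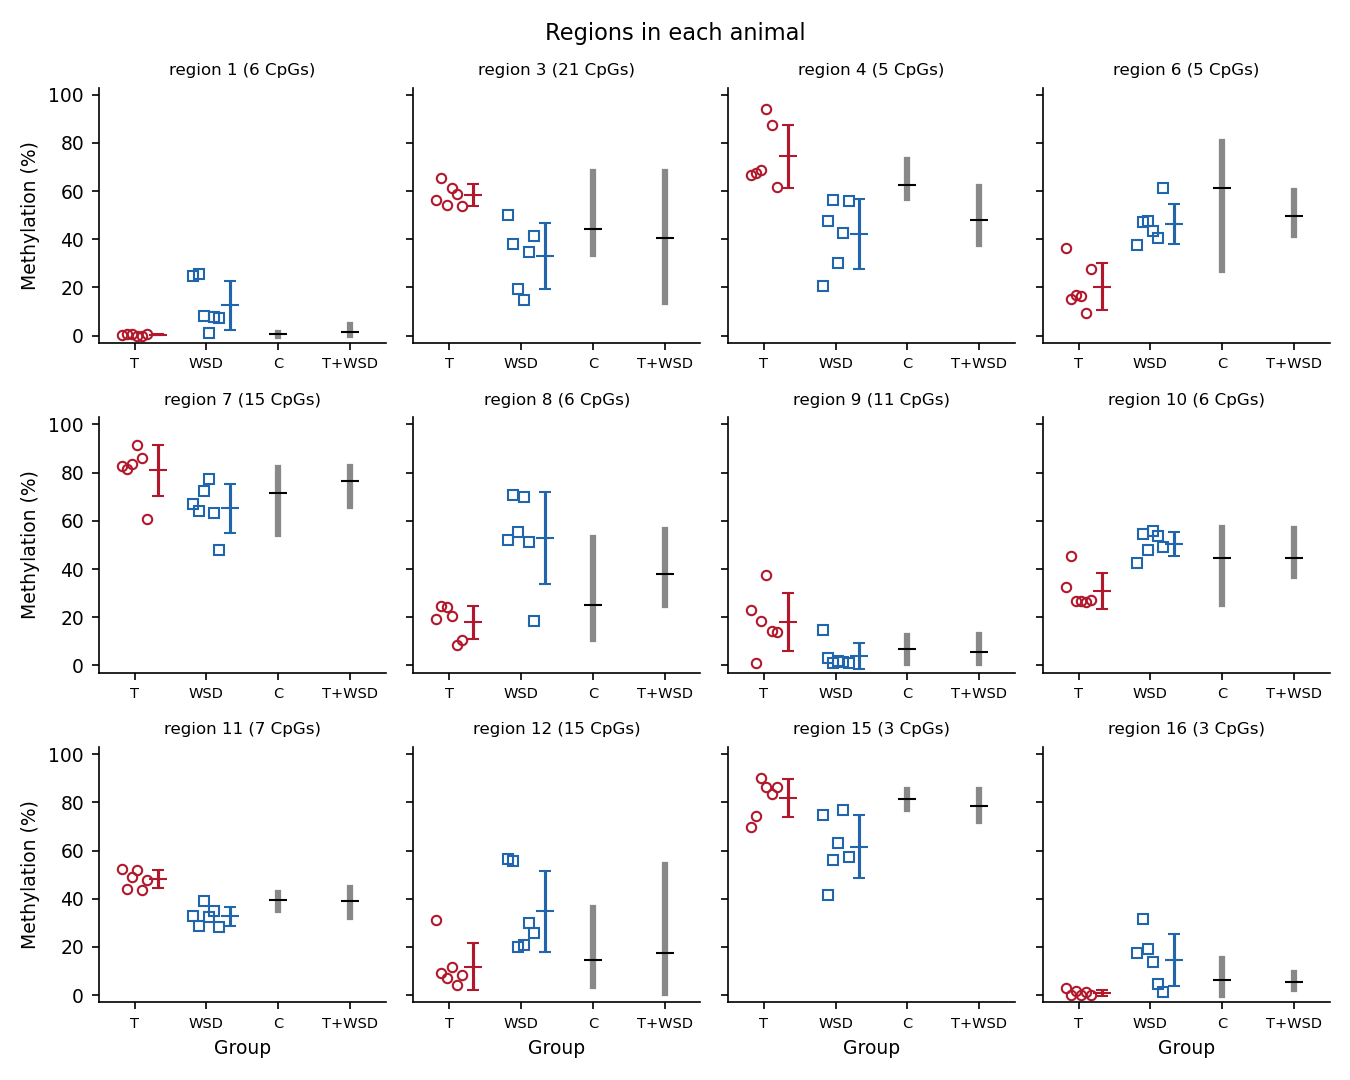
Methylation (%) of the 12 regions of smallest Sidak p with a value in all 12 animals that were found in at least 9 of the 12 omissions, in each T (circles) and WSD (squares) animal with mean and SD, and the range (grey) and mean (dash) of the C and T+WSD animals with a value. T and WSD are apart in regions 1, 3, 4, 6 and 11, and 1 or more animals overlap in the others.

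Of 5 parts of the genome, 1 passed the test of its mean. The autosomes without their outer 2 Mb averaged 43.5 ± 0.391% in *T* and 43.8 ± 0.610% in *WSD*, the X without its ends 52.5 ± 1.13% and 52.9 ± 1.57%, the outer 2 Mb of all chromosomes 56.8 ± 0.655% and 57.1 ± 0.863%, and unplaced scaffolds 60.7 ± 0.449% and 60.9 ± 0.873%. Each of these 4 had an adjusted p of 0.695. The mitochondrial genome, which in most tissues is little methylated, averaged 1.98 ± 0.227% in *T* and 3.10 ± 0.278% in *WSD* over the 58 CpGs with a value in all 12 animals. Every *T* animal (1.56 to 2.20%) lay below every *WSD* animal (2.69 to 3.41%), a difference of -1.12 points (interval -1.45 to -0.79; exact permutation p = 0.00216, the smallest that 6 against 6 can give, adjusted p = 0.0108).

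The mitochondrial difference rested on 2 neighbouring CpGs, at positions 6596 and 6602. At 6596 the *T* animals had 11.3, 7.26, 17.2, 2.08, 13.5 and 9.72% and the *WSD* animals 24.7, 25.5, 45.5, 45.2, 31.5 and 40.2%. At 6602 the *T* animals had 8.06, 7.72, 14.5, 4.5, 10.3 and 6.91% and the *WSD* animals 27.2, 23.97, 41.1, 49.5, 28.0 and 39.3%. WSD 21, WSD 22 and WSD 24 were the highest at each. The 4 *C* animals with a value had 1.02 to 12.2% over the 2 CpGs and the 5 *T* + *WSD* animals 0.75 to 22.03%, below the *WSD* animals. Over the 58 CpGs, the 4 *C* animals with a value at each averaged 0.689 to 2.61% and the 5 such *T* + *WSD* animals 0.853 to 2.05%. The other 3 animals of those groups had a value at 11 to 17 of the CpGs only and averaged 28.1 to 55.9% over them. They had no value at these 2 CpGs, and means over so few CpGs cannot be set against those over 58. The limma adjusted p of each CpG among all CpGs was 0.314, and as a region the pair had a Sidak-adjusted p = 0.004. As a region the pair was found again in only 7 of the 12 omissions of 1 animal and in 2 of the 6 other fits. Without these 2 CpGs, the other 56 averaged 1.71 ± 0.352% in *T* and 1.95 ± 0.315% in *WSD*, a difference of -0.24 points (exact permutation p = 0.251), and over all 113 mitochondrial CpGs with the values at hand it was -0.42 points (exact permutation p = 0.0974). Mitochondrial sequence also occurs as copies in the nuclear genome, and whether reads of such copies entered these 2 positions was not tested.

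**Figure D5:**
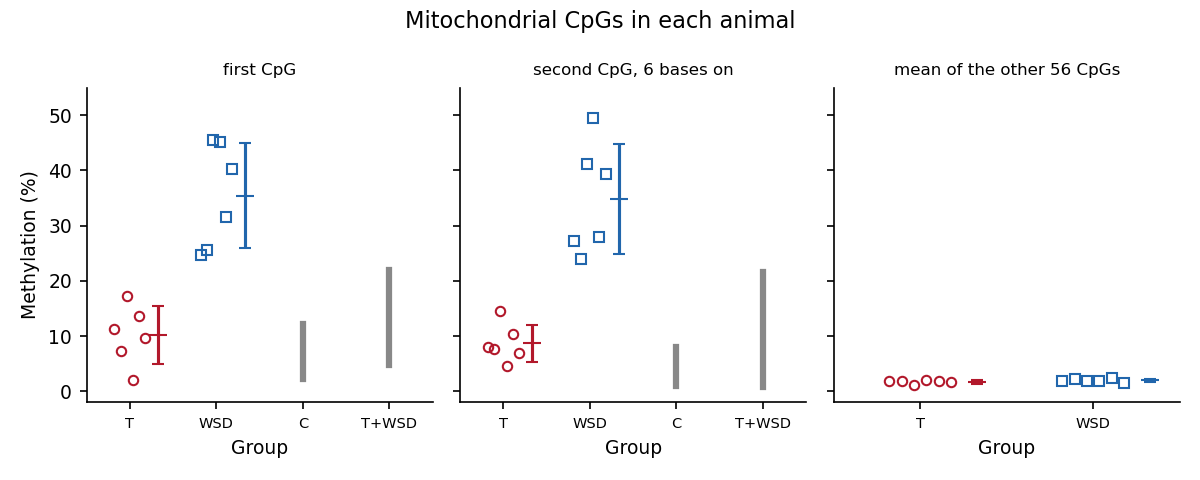
Methylation (%) of the 2 mitochondrial CpGs of largest difference and the mean of the other 56, in each T (circles) and WSD (squares) animal with mean and SD, with the range of the C and T+WSD animals that had a value in grey. At both CpGs all WSD animals (23.97 to 49.5%) lie above all T animals (2.08 to 17.2%), and the mean of the other 56 CpGs lies near 2% in both groups.

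No difference between the groups was detected in how far their animals lay from the outside reference. The scatter of an animal, taken as the median distance of its windows from their mean over *C* and *T* + *WSD*, was 2.11 ± 0.439 points in *T* and 2.10 ± 0.171 points in *WSD* (difference 0.01 points, interval -0.35 to 0.44, exact permutation p = 0.961). T 16, the animal with the fewest values, had 2.95 points, and the other *T* animals had 1.78 to 2.20 points. Without T 16 the difference was -0.16 points (exact permutation p = 0.173). Scatter within the 5 level classes gave adjusted p values of 0.955. Whole profiles of *T* and *WSD* were about as far from each other as animals within a group. The mean distance over windows on the arcsine scale was 6.45 degrees within *T*, 6.23 within *WSD* and 6.35 between them (pseudo-F 1.03, exact permutation p = 0.251). Without T 16 these were 5.86, 6.23 and 6.07 degrees (pseudo-F 1.02, exact permutation p = 0.310), so that *T* turned from the wider to the tighter group. By level class the lowest p was 0.0736, in windows at 70 to 90% (exact permutation, adjusted p = 0.368).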

How the data were processed

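RRBS was run on omental WAT DNA of 24 female rhesus macaques, 6 per group, grouped by the labels. The submitters' processing notes name FastQC 0.11.5, Trim Galore 0.4.2 and Bismark 0.16.1. Per the study's methods, reads were aligned to rheMac8 and CpGs needed coverage of 10 or more in at least 4 animals of each group. The authors deposited percent methylation per CpG and animal with no read counts, so the depth behind each value is unknown here, and so is its counting error. All columns belonged to the 24 samples.

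Limma 3.58.1 (R 4.3.3) was fitted to the arcsine square root of the rates, with all 4 groups sharing 1 spread. Windows were 1 kb with at least 3 CpGs. A call needed an adjusted p under 0.05 and a difference over 10 points. The limma p-values were joined as in comb-p (steps of 50 bp, correlations used down to 0.04, joined within 300 bp, Sidak-adjusted p under 0.1). Single values per animal were tested by two-sided exact permutation over all splits of the 12 animals, with 95% intervals from the same test. The fit of windows was tested on simulated data, in which differences at the 10-point cutoff were not called and larger ones only in part. Of 200 changed windows among 72386, 95 were called at 20 points and 166 at 30. Among the unchanged windows, 3 and 12 were called in these 2 settings. The simulated rates were not split by level of the window and cannot be taken to hold at every level. Python 3.11.15, numpy 2.4.6 and scipy 1.17.1 were used.

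Named windows were, by rule, the 10 largest differences in each direction among windows without overlap of the groups, the first 3 of each with every animal's value, and up to 10 called regions, taken by smallest Sidak p. The groups compared, the classes and the rules were chosen with earlier results of these data known. Alternatives were other transformations, fits, filters, window sizes and the omission of each animal. No annotation or genome of rheMac8 was used here, so genes, promoters, gene lists, cell type markers and sequences were not analysed.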

Additional observations from a re-analysis of the deposited data

Results flagged for a closer look

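In groups of 6, an animal was set apart where its gap to the nearest other animal as a share of the group's range exceeded the 95% critical value of Dixon's test. This was asked of 142 sets of 6 values and met in 28 (19.7%), where about 1 in 20 is met by chance. Many of the sets share animals, and the windows and regions were chosen for their differences. T 16, which had the fewest CpGs with a value (85.3%), had the highest scatter over all windows at 2.95 points, and by class at 0.827 points under 10%, 6.05 at 10 to 40%, 7.64 at 40 to 70%, 5.11 at 70 to 90% and 2.71 at 90% and over. The part of depth in this was not tested.

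Among class means, T 13 (2.43%) and WSD 20 (2.65%) were high in CpG-dense windows under 10%. WSD 22 was low in CpG-sparse windows at 40 to 70% (54.2%), in CpG-dense windows at 70 to 90% (81.1%) and in the outer 2 Mb of chromosomes (55.5%), and T 18 was low in CpG-dense windows at 70 to 90% (80.9%).

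Of the named windows higher in *T*, the second had T 14 at 68.9% and WSD 20 at 47.8%, the third WSD 23 at 14.5%, chr15:109573062-109573214 WSD 22 at 46.9%, chr10:34787056-34787118 T 16 at 94.9%, and chr3:23796263-23796330 T 14 at 89.5%. Of those higher in *WSD*, chr2:200927043-200927072 had WSD 22 at 64.1% and chr12:89567826-89567877 WSD 19 at 70.04%.

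Of the regions, chr1:122827083-122827358 had WSD 24 at 94.4% (3 of the 14 CpGs with a value), chr7:21260000-21260197 T 18 at 60.7%, chr15:17519807-17519850 WSD 24 at 18.3%, chr14:125843438-125843505 WSD 19 at 14.7% and chr5:120812725-120812781 T 14 at 45.5%. In 3 regions of larger Sidak p, at chr19:36275277-36275421, chr3:179115073-179115144 and chr13:39984451-39984481, T 13 had 31.1% and 11.3% in the first 2 and T 16 had 7.14% in the last.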

How the results depend on the processing

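The mean, class, compartment and scatter comparisons kept their side of the threshold under all alternatives run, with the exception of the mitochondrial mean. No paired analysis was possible because the animal numbers of *T* and *WSD* differ. Called CpGs (0 by limma) came to 1 with log ratios, 14 with only the *T* and *WSD* animals, and 0 to 14 when 1 animal was left out (14 without WSD 23). Called windows stayed at 0 except for 1 without T 15 and 1 without T 16, the range over omissions being 0 to 1. Regions (33) fell to 18 with untransformed rates (8 higher in *T* and 10 in *WSD*) and to 21 both with only the *T* and *WSD* animals and with a robust prior. Omissions gave 22 to 42 regions, of which 15 to 24 of the 33 were found again. Without T 14, 12 regions were higher in *T* and 11 in *WSD*. The number of compartments passing (1) was 0 when all CpGs with a value were averaged, the mitochondrial difference then being -0.42 points, and without the 2 mitochondrial CpGs, an alternative chosen after seeing the data, it was -0.24 points. The cause of these changes was not tested. Over the omissions the share of CpGs with a value differed by -2.32 to 0.138 percentage points, scatter by -0.16 to 0.0737 points, and the means of CpG-dense windows by -1.05 to 0.0288 points at 10 to 40%, -1.18 to 0.32 at 40 to 70% and -0.64 to 0.0874 at 70 to 90%. The X ranged from -0.92 to 0.0442 points and unplaced scaffolds from -0.48 to 0.0242. Scatter by class ranged from -0.0579 to 0.0114 points under 10%, -0.29 to 0.16 at 10 to 40%, -0.29 to 0.28 at 40 to 70%, -0.13 to 0.23 at 70 to 90% and -0.14 to 0.0922 at 90% and over. The promoter comparison and its alternatives were not run, since no annotation of the build was used here. The depth behind the values is unknown.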
